A study of Drosophila melanogaster with 2 samples.

Results

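Tousled-like kinase (gene Tlk, FBgn0283657) is a nuclear serine/threonine kinase of Drosophila melanogaster. Binding of Apterous (gene ap), a LIM homeodomain transcription factor, was read at this gene from ChIP-seq peak lists. Members were all peaks with the summit inside the annotated span of Tlk, or with a Tlk start site as the nearest protein-coding start. The conservative list, made from both replicates pooled and thresholded on how well peak ranks repeat, held 7 such peaks of 3184. The less strict pooled list held 8 of 3289. Replicate 1 had 6 of 1977 thresholded peaks and 46 of 82646 ranked peaks at Tlk, and replicate 2 had 5 of 2210 thresholded and 45 of 102850 ranked peaks. The gene was chosen by the signal of its strongest peak in these same lists, so its counts and signals are descriptions, and no test was made on them.

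Both samples were embryos aged 0 to 24 h of the strain ap-GFP, which carries an insertion targeting ap and makes an ap-eGFP fusion protein, and the chromatin was precipitated with an antibody against GFP. They are labelled biological replicates 1 and 2 and form the only group. Whole embryos were used, so chromatin of cells that make Apterous and of cells that do not was mixed, and the labels do not say which sequences drive the fusion. No control precipitation was analysed here, and the lists carry no read totals, so the depth behind a signal is unknown.

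Tousled-like kinases act mainly while DNA is being replicated. They phosphorylate the histone chaperone Asf1, which passes new histones H3 and H4 to the factors that load them onto replicated DNA. In flies, loss of Tlk disturbs nuclear division and is lethal. Apterous is best known for dorsal identity in the wing, a later tissue than the one sampled here, and LIM homeodomain proteins bind sites with the core TAATTA.

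Tlk lies on the plus strand of X from 3720007 to 3789770 (dm6), a span of 69764 bp. Ensembl gives it 14 transcripts from 8 start sites, at 0, 4.6, 19.9, 27.2, 29.1, 52.6, 56.1 and 60.1 kb from the first, and 6 of the transcripts begin at the first. The 5 exons found in every transcript begin 61.6 kb into the gene, and exons cover 16.6% of the span, so most of Tlk is intron ahead of the shared exons. Peaks are named here by the distance of the pooled summit from the first start. The 8 sites lie at 1.9, 22.2, 23.6, 24.3, 28.5, 30.7, 53.5 and 54.4 kb, of which the one at 24.3 kb is in the less strict list alone.

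Sequences are shown for the strongest site, which carries most of the summed signal of the conservative Tlk peaks. The weakest site is shown as well, since it differs most from the others in base composition. The pair of sites with a homeodomain word near the summit is also shown. All are the plus strand of the RefSeq release 6 X chromosome, the same assembly as dm6. The strongest site is printed whole (chrX:3742088-3742328), with the word CAGGGTTG and its reverse complement CAACCCTG in capitals. The other sequences are the summit and 50 bp on each side (chrX:3721814-3721914, chrX:3744272-3744372 and chrX:3773469-3773569), with TAATTA or TAATTG in capitals. The window of the weakest site holds neither word.
22.2 kb site: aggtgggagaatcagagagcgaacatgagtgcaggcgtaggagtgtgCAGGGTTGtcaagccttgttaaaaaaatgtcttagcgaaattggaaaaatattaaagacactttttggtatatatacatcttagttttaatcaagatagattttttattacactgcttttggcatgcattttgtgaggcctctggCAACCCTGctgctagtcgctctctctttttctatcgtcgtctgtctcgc
1.9 kb site: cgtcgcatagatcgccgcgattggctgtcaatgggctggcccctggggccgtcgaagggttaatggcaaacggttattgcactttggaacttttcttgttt
24.3 kb site: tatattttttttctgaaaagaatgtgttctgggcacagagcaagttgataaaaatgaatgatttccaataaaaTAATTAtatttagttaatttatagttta
53.5 kb site: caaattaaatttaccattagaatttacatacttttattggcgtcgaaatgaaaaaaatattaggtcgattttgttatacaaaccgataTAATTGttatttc

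The site at 22.2 kb held most of the summed signal of the 7 conservative Tlk peaks. Its summit, at 3742221, had a pooled signal of 861.8, rank 16 of the 3184 conservative peaks and rank 3 of the 619 on X. Replicate 1 gave a signal of 389.4 there and replicate 2 gave 467.2, a mean of 428.3 ± 55.05 (SD, n = 2). These were ranks 22 and 16 of the ranked lists of replicates 1 and 2, both replicates thresholded the peak, and their summits lay 6 bp apart. Of the summed signal of the 7 conservative peaks, this peak made up 59.6% in the pool, 58.4% in replicate 1 and 59.6% in replicate 2. It was 6.22 times the next strongest Tlk peak in the pool, 5.38 times in replicate 1 and 4.81 times in replicate 2.

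This summit was in an intron of all 8 transcripts that cross it. The shortest of these introns runs for 41450 bp, from 3740205 to 3781654, and belongs to transcript Tlk-RK, which starts at 19.9 kb. That start was the nearest one, 2324 bp upstream of the summit, and the nearest exon edge was 2017 bp away. The peak's sequence had a single full-length match in the genome.

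The remaining 6 conservative peaks had pooled signals from 49.2 to 138.5, on both sides of the median of 93.5 over all conservative peaks. The site at 54.4 kb had a pooled signal of 138.5, with 72.4 in replicate 1 and 67.6 in replicate 2 (70.0 ± 3.38, SD, n = 2). The site at 30.7 kb had 112.6 in the pool, with 60.7 in replicate 1 and 55.3 in replicate 2 (58.0 ± 3.75, SD, n = 2). Both sites were thresholded in each replicate, and the replicates were about as near to each other at one as at the other.

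At 23.6 kb the replicates stood apart. The pooled signal was 137.3, but replicate 1 gave 45.5 and replicate 2 gave 97.2 (71.4 ± 36.5, SD, n = 2), a 2.14-fold higher signal in replicate 2, with summits 3 bp apart. It was the second strongest Tlk peak in replicate 2, whereas in replicate 1 that place belonged to 54.4 kb. It was also the only 1 of the 7 conservative peaks with signals over 2-fold apart, against 2.33% of the 3134 conservative peaks that overlap a ranked peak in both replicates. At the other 6 conservative peaks the log2 ratio of replicate 2 to replicate 1 lay between -0.17 and 0.26, within the SD of 0.43 around a mean of 0.03 over those 3134 peaks.

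The 3 weakest conservative peaks were those on which the single-replicate lists differed from the pooled one. The site at 53.5 kb had 81.0 in the pool and 43.1 and 38.2 in replicates 1 and 2, and replicate 1 alone thresholded it. The site at 28.5 kb had 66.0 in the pool and 28.4 and 33.2 in replicates 1 and 2, and neither thresholded it. Neither replicate thresholded the weakest one either, at 1.9 kb, where the pool gave 49.2 and the replicates 27.1 and 25.8 (26.5 ± 0.944, SD, n = 2). It ranked 3068 of 3184. In all, 4 of the 7 conservative peaks overlapped a thresholded peak of both replicates, against 48.1% of all conservative peaks, and 2 overlapped one of neither, against 27.9%. Both shares at Tlk are near those of the whole list.

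The site at 24.3 kb showed the opposite pattern. It was absent from the conservative list, although its pooled signal of 103.3 exceeded that of 3 conservative Tlk peaks, and both replicates thresholded a peak there, with signals of 57.7 and 64.9 (61.3 ± 5.14, SD, n = 2). The 2 summits were 119 bp apart, at 3744302 in replicate 1 and 3744183 in replicate 2. The ranked peak of replicate 2 with the summit nearest to the pooled one had a signal of 13.7. Scores run to 1000, and the lowest score in the conservative list was 830. No label says which of the 2 pooled ranked lists compares the replicates. The one that holds the conservative peaks was taken as that list, and the one that holds the less strict peaks as a comparison of divided pooled reads. In the list taken as the replicate comparison this site scored 48, with an irreproducible discovery rate (IDR, the estimated share of such peaks whose rank would not repeat) of 0.766, and in the other it scored 1000. The weakest conservative Tlk peak, at 1.9 kb, scored 831 with an IDR of 0.00995 in the first of these lists, just inside.

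**Figure D1:**
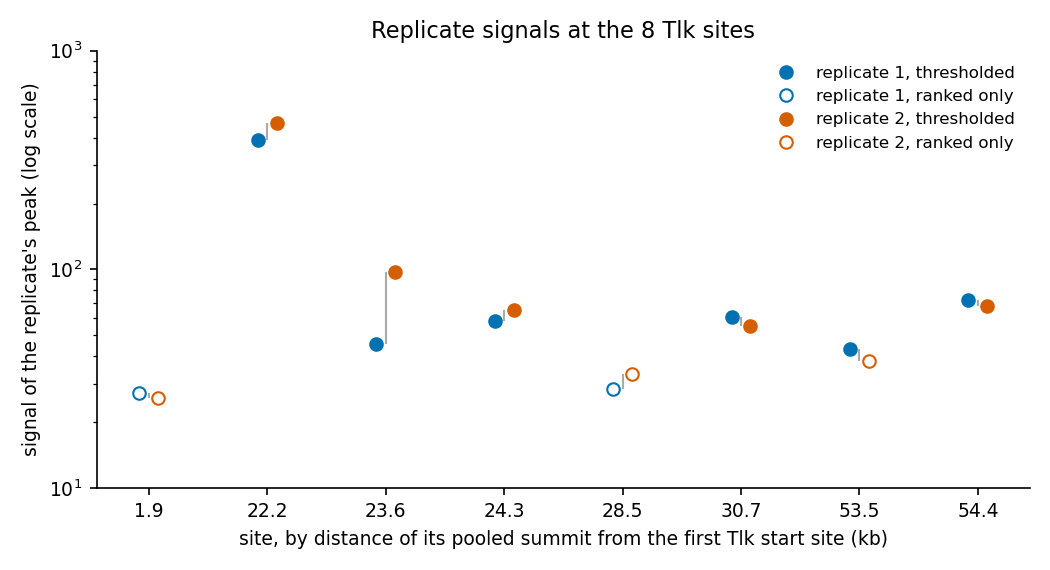
Signal of the overlapping ranked peak in each replicate (log axis, in the units of the deposited lists) at the 8 Tlk sites, ordered along the gene. Filled points are in that replicate's thresholded list, open points in its ranked list alone, and a grey line joins the replicates of a site. Both points at 22.2 kb, 389.4 and 467.2, stand above all others, and the widest gap is at 23.6 kb, between 45.5 and 97.2.

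**Figure D2:**
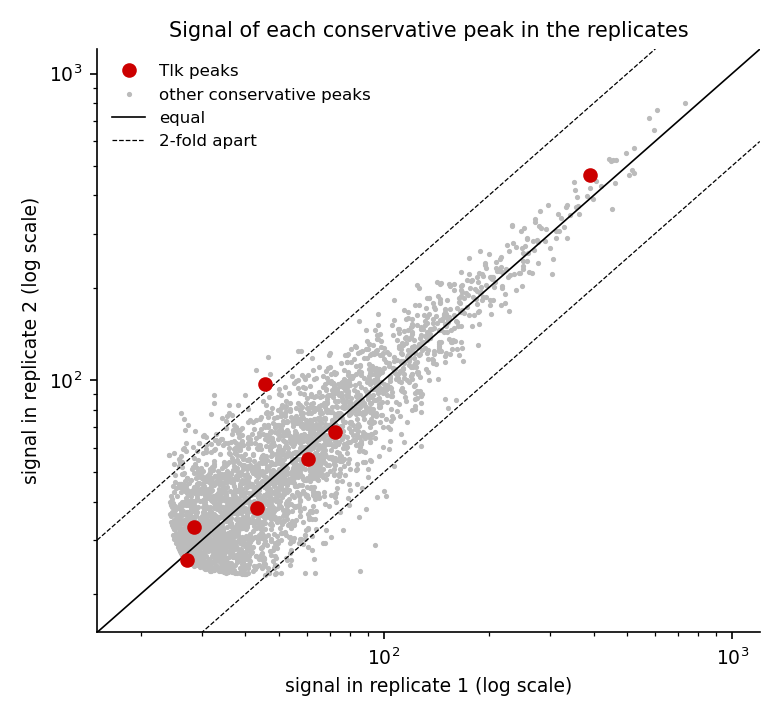
Signal of each conservative peak in replicate 1 (x axis) and replicate 2 (y axis), both log scales, for the 7 Tlk peaks (red) and the other conservative peaks with a ranked peak in both replicates (grey). The solid line marks equal signals and the dashed lines a 2-fold difference. Of the Tlk peaks, 1 lies outside the dashed lines.

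All 8 summits were in introns of every transcript that crosses them, between 6 and 12 transcripts each. They were unevenly spaced. The gaps between neighbouring summits were 20.4 kb, then 1.4, 0.7, 4.1 and 2.2 kb, then 22.8 kb and 0.9 kb. There were 5 sites within the stretch from 22.2 to 30.7 kb, which holds the starts of Tlk-RB and Tlk-RN, and 2 between the starts at 52.6 and 56.1 kb. No conservative or thresholded peak lay in the last 9.6 kb from the start at 60.1 kb to the end of the gene, where the shared exons are.

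None of the 8 sites was at a start. Of the 7 conservative peaks, 0 had a start site nearer than 500 bp to the summit, against 39.3% of all conservative peaks. The nearest were 596 bp upstream of the start at 29.1 kb, for the site at 28.5 kb, and 879 bp downstream of the start at 52.6 kb, for the site at 53.5 kb. The sites at 23.6 and 24.3 kb were the farthest, 3526 and 2841 bp upstream of the start at 27.2 kb.

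Weak ranked peaks did lie at several starts. Replicate 1 had a ranked summit within 500 bp of 6 of the 8 start sites and replicate 2 at 4, and the 4 of replicate 2 were among the 6. Their highest signals per start ran from 4.54 to 21.8, below the 49.2 of the weakest pooled site and also below the 25.8 and 27.1 that the replicates gave there. At the first start, shared by 6 of the 14 transcripts, replicate 1 had 18.1 and replicate 2 had 11.9, with summits 249 and 122 bp upstream. That summit of replicate 1 is nearer to the start of the neighbouring gene Rala, so it is not one of the Tlk members. No ranked summit of either replicate lay within 500 bp of the starts at 4.6 and 52.6 kb. Ranked summits are common, at 0.601 and 0.748 per kb over the genome in replicates 1 and 2. The share of all protein-coding starts with one was not computed, so the counts of 6 and 4 are not set apart from background.

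**Figure D3:**
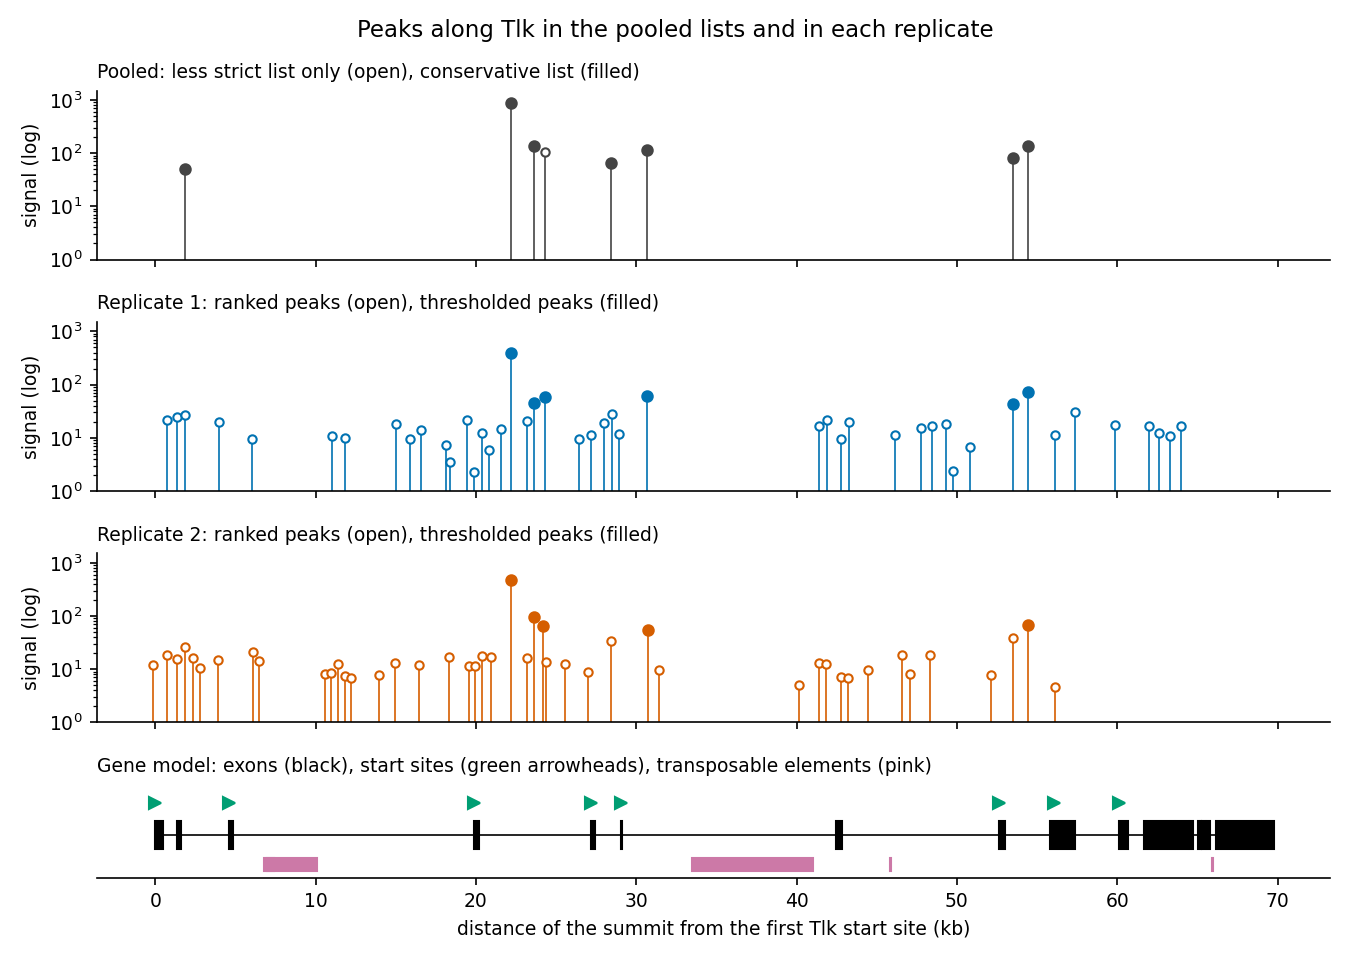
Signal of each peak (log axis, in the units of the deposited lists) against the distance of its summit from the first Tlk start site, in kb, for the pooled lists and for each replicate, above the exons, the 8 start sites and the annotated transposable elements. Thresholded peaks are filled in the replicate panels and conservative peaks in the pooled one. The peak at 22.2 kb is the highest in all 3 panels, and replicate 2 has no ranked peak beyond the start at 60.1 kb.

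Most ranked candidates at Tlk were weak and unthresholded. In replicate 1, 6 of the 46 were thresholded, against 2.39% of its whole ranked list, and in replicate 2, 5 of the 45, against 2.15%. The rule for choosing the gene used these peaks, so nothing is read from that difference. Signals of the ranked peaks ran from 2.29 through a median of 16.5 to 389.4 in replicate 1, and from 4.54 through a median of 13.0 to 467.2 in replicate 2. Without the thresholded peaks the medians were 14.1 and 12.3 at Tlk, against 13.3 and 11.3 for the full ranked lists of replicates 1 and 2.

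The candidates were also about as dense as elsewhere. Tlk held 0.659 and 0.631 ranked summits per kb in replicates 1 and 2, against 0.601 and 0.748 over the genome. Of the conservative peaks it held 0.1 per kb, against 0.0231 over the genome and 0.0263 over X. Of the ranked peaks at Tlk, 30 of 46 in replicate 1 overlapped one of replicate 2, against 60.0% of its whole list, and 31 of 45 in replicate 2 overlapped one of replicate 1, against 48.1%.

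Just outside the threshold, the highest-scoring unthresholded Tlk peak of replicate 1 had a score of 495 and a signal of 28.4, and that of replicate 2 a score of 774 and a signal of 33.2. Both are the site at 28.5 kb. The lowest thresholded score at Tlk was 917 in replicate 1, at 53.5 kb, and 1000 in replicate 2. The strongest unthresholded peak by signal was, in replicate 1, one of 30.1 with a score of 131 at 3777360, which overlaps the hairpin of the microRNA gene mir-4962 nested in Tlk. In replicate 2 it was the site at 53.5 kb, with 38.2 and a score of 27.

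Toward the end of the gene the candidates differed between replicates. In the 9.6 kb from the last start, replicate 1 had 4 ranked summits and replicate 2 had 0, although the ranked list of replicate 2 is the longer one. These 4 were weak, with scores from 14 to 30. Their signals ran from 10.7 to 16.5, against a median of 13.3 over the ranked list of replicate 1. Exonic summits numbered 9 of 46 in replicate 1, these 4 included, and 4 of 45 in replicate 2. Exons cover 16.6% of the span. The median GC content in the 101 bp at the summit was 46.5% over the full ranked list of each replicate. The 16 ranked peaks of replicate 1 that overlap none of replicate 2 had a median of 48.5%, near that of the list, against 38.6% for its other Tlk peaks. The 14 of replicate 2 that overlap none of replicate 1 had 39.1%, against 37.6% for its other Tlk peaks, both below the list. The part of base composition in the counts was not tested.

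Annotated transposable elements fill 2 stretches with few or no ranked summits. FB elements between 3726818 and 3730153, fully masked as repeats, held no ranked summit in either replicate. A 17.6 element, an LTR retrotransposon of 7498 bp that is 84.4% masked, held 0 ranked summits in replicate 1 and 1 in replicate 2. How uniquely reads map in these elements is not stated by the labels, and its part in the gaps was not tested.

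Most Tlk sites were AT-rich, like the list as a whole. GC content in the 101 bp at the summit ran from 21.8% through a median of 28.7% to 53.5% over the 7 conservative Tlk peaks, against a mean of 33.0 ± 9.89% (SD over peaks) and a median of 30.7% over all conservative peaks. The 53.5% belongs to the site at 1.9 kb, and the next highest was 33.7% at 30.7 kb. At 22.2 kb the GC content was 25.7% at the summit and 40.7% over the whole peak, since both flanks are richer than the centre, as the printed sequence shows.

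Homeodomain words were few at the Tlk summits, as over the whole list. Within 50 bp of the summit and on either strand, TAATTA was in 0 of the 7 conservative peaks, against 11.4% of all conservative peaks, and TAATTG in 1, at 53.5 kb and 38 bp right of the summit, against 11.6%. The site at 24.3 kb in the less strict list had TAATTA 23 bp right of its summit. Away from the summit, the site at 53.5 kb also had TAATTA 122 bp to the left. Palindromes named for other factors were searched in the same windows. TATCGATA, the site of the factor DREF, was in 0 of the 7, against 0.974% of all, and CAGCTG, an E-box for basic helix-loop-helix factors, in 0 of the 7, against 3.23%. With 7 peaks, these counts do not set Tlk apart from the list.

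The strongest site carried another word in 2 copies. CAGGGTTG and its reverse complement CAACCCTG began 86 bp left and 59 bp right of the summit, facing each other across the AT-rich centre, 145 bp from start to start. This word was picked by eye from the sequence after the signal was known, so its counts are a description. It was in 41 conservative peaks, or 1.29%, with a median signal of 119.9 against 93.5 over all conservative peaks, and in no other Tlk site. The lowest signal of these 41 was 53.1. Of the 20 strongest conservative peaks only 1 had the word, the one at Tlk from which it was picked. At least 2 copies were in 4 conservative peaks, or 0.126%. Those nearest Psc, which encodes a Polycomb group protein, and eEF1gamma, an elongation factor subunit, had the same arrangement. Their pooled signals were 713.1 and 597.9, ranks 27 and 43. The fourth, nearest ball, had both copies in the same direction and a signal of 103.4.

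Read over the genome, the word had 1698 copies, 1.23 per 100 kb. CAGGGTTG followed by CAACCCTG on the same strand, 100 to 200 bp from start to start, was found at 7 places, Tlk included. That spacing was set after the facing copies at Tlk, Psc and eEF1gamma had been seen, so these counts are a description too. Of the 7 places, 6 overlapped a conservative peak by at least 1 bp and all 7 overlapped a ranked peak. The overlap at Tlk, Psc and eEF1gamma was fixed by that choice. Over the genome, 41 conservative peaks held the word. The share of all 1698 copies that overlap a conservative or ranked peak was not computed. Besides Tlk, Psc and eEF1gamma, the conservative peaks were nearest wde, with a signal of 379.1, sbb with 267.6 and l(3)L1231 with 208.4, all above the median of 93.5. The peaks at wde, sbb and l(3)L1231 overlap the pair but do not hold both copies whole. The seventh place, on 3R, had ranked peaks of 23.3 and 34.1 in replicates 1 and 2. At the same spacing, the reverse arrangement, CAACCCTG then CAGGGTTG, occurred at 0 places. Copies in the same direction occurred at 4, of which 0 overlapped a conservative peak and 3 a ranked one. The same-direction copies in the conservative peak nearest ball, 35 bp apart, are outside this spacing and were not counted. With so few places and no background share, nothing is read from these arrangements, and no factor is assigned to this word here.

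Counted by gene, Tlk was among the few genes with many summits. Of 13968 protein-coding genes, 1256 had a conservative summit inside. The count of 7 in Tlk was exceeded by 7 genes, and 14 genes, or 0.100%, had at least as many, Tlk included. Genes differ in length, and 180 are longer than Tlk. Of the 517 genes of 0.5 to 2 times its length, Tlk included, 274 had no conservative summit, the median was 0, the highest count was 14, and 11 had as many as Tlk or more. None of these 517 had a stronger summit inside than Tlk, and 7 genes of any length did. Tlk was chosen by the signal of its strongest peak, so nothing is read from these ranks.

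The genes most like Tlk in length, number of summits inside and strongest signal, by Euclidean distance of these 3 measures on a log2 scale, were Raf, NFAT, Hr4, CG32264 and sbb. Raf, a kinase of the MAP kinase cascade, is 48.4 kb long with 12 summits and a strongest signal of 459.9, at a distance of 1.26. NFAT, a transcription factor gene, has 5 summits in 39.8 kb and 469.6 (distance 1.26), and Hr4, a nuclear receptor gene, has 7 in 66.0 kb and 352.5 (distance 1.29). CG32264 has 5 in 91.6 kb and 384.5, and sbb, which encodes a transcriptional co-repressor, has 11 in 79.1 kb and 384.7. All 5 had a strongest signal below the 861.8 of Tlk, and the first 3 are on X, as Tlk is.

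**Figure D4:**
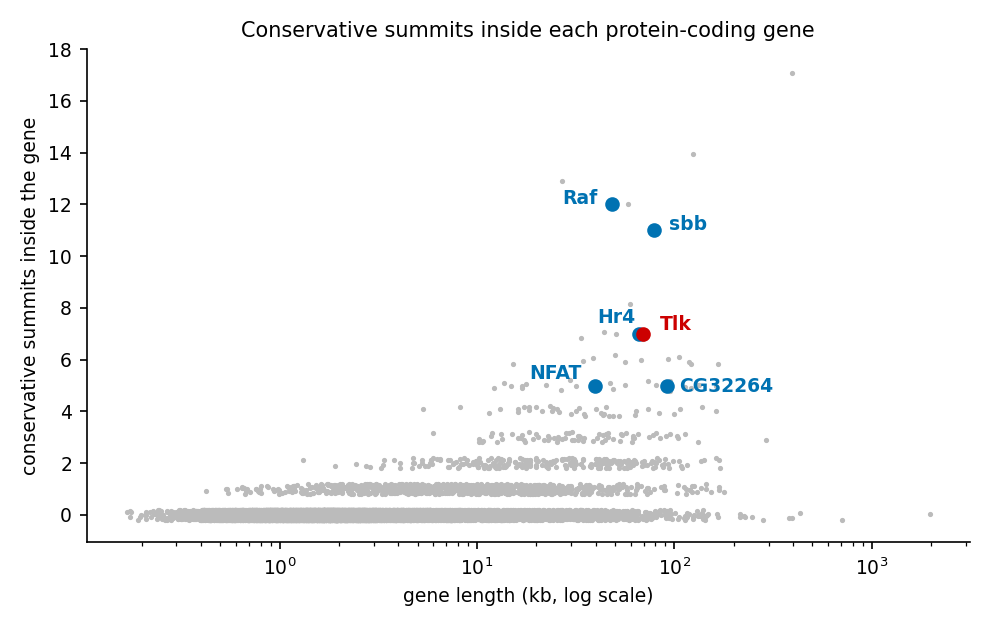
Number of conservative summits inside each protein-coding gene (y axis) against gene length in kb (x axis, log scale), with Tlk in red, the 5 genes most like it in blue and all other genes in grey, shifted slightly up or down so that points do not hide each other. Tlk, with 7 summits in 69.8 kb, lies above most genes of its length, and next to Hr4.

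Of the genes beside Tlk, Rala alone had a conservative peak. Rala, a small GTPase gene, is transcribed away from Tlk, and the 372 bp between their starts held 1 ranked summit in each replicate. The single conservative peak of Rala, with a signal of 72.5, lay 5742 bp from the first Tlk start. HIP-R, on the other side with a gap of 199 bp, had no conservative or ranked peak. No other protein-coding gene overlaps Tlk, so its sites lie in no second coding gene.

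The chaperones and checkpoint genes that work with or beside tousled-like kinases were counted by the same rule. Of 15 matched genes of 16 listed, 2 had a conservative peak inside or nearest, against 17.4% of all protein-coding genes, a share near the background. The count depended on the rule. It was 7 when a summit within 2000 bp of the gene was enough, against 24.4% of all protein-coding genes. It was 2 in the thresholded list of replicate 1, against 12.2%, and 0 in that of replicate 2, against 13.5%. Caf1-180, the large subunit of the chromatin assembly factor that receives histones from Asf1, had a peak outside the gene, 4920 bp from its start. Its pooled signal was 74.4, with 41.8 in replicate 1 and 30.3 in replicate 2 (36.0 ± 8.11, SD, n = 2). The gene grp, which encodes the checkpoint kinase Chk1, had 2 peaks, the stronger with a pooled signal of 62.9 and with 45.6 and 23.1 in replicates 1 and 2 (34.4 ± 15.9, SD, n = 2). Its summit was inside grp, 706 bp from a start of grp, but the start of another gene was nearer, at 676 bp. By the inside-or-nearest rule the other 13 had none, among them asf1, the chaperone that Tlk phosphorylates, Hira, another histone chaperone, and mei-41, the checkpoint kinase ATR of flies, which had 1 summit within 2000 bp. Both signals are well below those of the strongest Tlk site and near those of its weak ones.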

How the data were processed

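The authors deposited 8 peak lists on dm6 from 2 ChIP-seq samples of sonicated embryonic chromatin (fragments of 200 to 800 bp), per the labels. Each peak carries a deposited signal, in units that the lists do not define, which was compared only inside a list or between replicates side by side. Its deposited score rescales the IDR, and the −log10 columns of the deposited ranked lists gave the IDR itself, at most 0.00999 for a conservative peak. That the list holding the conservative peaks compares the replicates was inferred, not labelled. The sources used here name no aligner or peak caller. No read totals are given, so no counting interval can be set.

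For each pooled peak, the signal in a replicate was taken from the strongest of its own ranked peaks overlapping by at least 1 bp. Columns holding values per read set inside the pooled lists were not used, because nothing names their replicate. The 17 conservative peaks on scaffolds outside the main chromosomes were left out. Genes came from Ensembl release 115 (18277 genes, 13968 protein-coding) and sequence from RefSeq release 6. Uniqueness was checked with blastn 2.17.0 at an e-value of 1e-05. Words were searched on both strands. The assignment of peaks to genes and the word search were tested on simulated data. Python 3.11.15, numpy 2.4.6, pandas 2.3.3 and matplotlib 3.10.9 were used.

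Tlk, its members, the words and the gene list were chosen with earlier results of these data known. The word CAGGGTTG was chosen after its sequence and signal were seen. The spacing of its pairs was set after the peaks at Tlk, Psc and eEF1gamma were seen. Named genes are Tlk, its neighbours, listed genes with a peak, and the 5 genes most like Tlk. Genes at the CAGGGTTG pairs, Psc, eEF1gamma, ball, wde and l(3)L1231, and listed genes without a peak, were named after their values were seen. One listed name, DLP, had no match and is not analysed here. With 1 group of 2 samples no test was made, and each SD covers the spread of these samples alone. The alternatives tried were other lists, thresholds, overlaps, windows, ways to assign peaks, and leaving out each replicate.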

Additional observations from a re-analysis of the deposited data

How the results depend on the processing

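Of 27 alternatives tried over the Tlk results, 20 left the value within 1.5 times or within the replicate spread, and 7 moved it. The 7 conservative Tlk peaks became 4 in the stronger part of the conservative list, the peaks at or above its median signal, and ran from 5 to 6 when each replicate's own thresholded list was used without the other. The 4 peaks seen in both replicates became 7 when ranked peaks were counted as well. Peaks near a start site numbered 0 within 500 bp and 2 within 1000 bp, where the share of all conservative peaks is 49.2%. TAATTA was in 0 conservative peaks near the summit, in 1 when the whole peak was searched (21.8% of all conservative peaks), and in 1 site of the less strict list. Genes of the chaperone and checkpoint list with a peak numbered 2, but 7 when a summit within 2000 bp of the gene counted (24.4% of all protein-coding genes), and from 0 to 2 without one replicate or the other: the list of replicate 2 alone gave 0. The signal of the strongest peak ran from 389.4 to 467.2. No paired analysis was possible because there is 1 group. Depth is unknown, so a weak or missing peak, as at the shared exons, cannot be told apart from one below detection.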

Other observations

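Rala, the divergent neighbour of Tlk, had 9 ranked peaks in replicate 1 and 1 in replicate 2, and its conservative peak was in neither the less strict list nor the thresholded list of either replicate. At ball the 2 copies of CAGGGTTG lay 35 bp apart, and the peak had 34.3 in replicate 1 and 75.1 in replicate 2. At the 6 conservative peaks that overlap a facing pair of the word, replicate 1 gave 389.4 (Tlk), 363.1 (Psc), 278.3 (eEF1gamma), 177.1 (wde), 139.5 (sbb) and 124.7 (l(3)L1231). Replicate 2 gave 467.2, 348.4, 318.2, 200.3, 123.9 and 87.1 at the same places in that order. Only the peaks at Tlk, Psc and eEF1gamma hold both copies whole. The order of the 6 places by signal is the same in both replicates. Of the 7 facing pairs within the set spacing of 100 to 200 bp, the closest is at Tlk, at 145 bp. The widest is 188 bp, at sbb.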
